A study of Rattus norvegicus with 12 samples.

Results

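Among 41012 rat probes on a whole-genome oligonucleotide array, 3160 carried no gene description, and 48 of these gave a higher signal in PC12 cells treated with PACAP38 than in control cells. PC12 is a rat cell line from 1 adrenal phaeochromocytoma that takes on neuron-like features when stimulated, and PACAP38 is a neuropeptide whose receptors raise cyclic AMP. The 48 probes were selected on their own ratios. A probe was included where its description was "Unknown" and the ratio of PACAP38 over control was at least 2 on both arrays at 60 min or on both at 120 min, with a PACAP38 signal of at least 50 on both of those arrays. The values at 60 and 120 min therefore chose the probes and are given as a description, with no test. By this rule 48 of 3160 unannotated probes passed (1.52%), against 846 of all 41012 probes (2.06%). The number depends on the processing, here background correction, offset and dye scaling changed together. The normexp correction with an offset of 50 added to every signal draws the ratios of dim probes toward 1. With it, 11 of the 48 still passed after loess scaling and 6 after median centring.

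PC12 cells were given PACAP38 at 1e-07 M and collected after 5, 10, 15, 30, 60 or 120 min, each time with its control, which the labels call only Control while the treated cells are called PACAP-differentiated. The labels name no genetic change in the line. RNA of 6 cultures per group was pooled, and each pair of pools was hybridised to 2 arrays with the dyes exchanged. Both arrays of a time point thus held the same RNA, so that each time point was 1 replicate and no test between PACAP38 and control could be made at any single time. In total 12 arrays on 3 slides were used, with 5 and 10 min, 15 and 30 min, and 60 and 120 min each sharing a slide, so that slide and time could be separated only within these pairs.

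Array makers add probes without a description for transcripts that were seen as expressed sequence tags or predicted from the genome but tied to no gene. Such a probe may lie in an untranslated end, an intron or an alternative first exon of a known gene, or in a separate noncoding transcript. PACAP38 is known to induce immediate early genes within minutes, through cyclic AMP and MAP kinase signalling.

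Of the 48 probes, 32 (66.7%) were built on a tentative consensus, an assembly of expressed sequence tags whose name starts with TC, 1 on an Ensembl transcript, and 15 had no accession and are called here by their probe name. The tentative consensus class made up 28.9% of all unannotated probes, and 37.8% of the 902 other unannotated probes whose PACAP38 signal was at least 50 on both arrays at 60 or 120 min. A position in the rat genome was given for 42 of the 48, 3 of them on sequence not placed within its chromosome. Positions are in build rn4 and strands are those of the probe.

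The probe sequences that follow are those of the 7 probes past the limits at 10 or 15 min, shown because these rose earliest. Each has 60 bases, written 5′ to 3′ as the array lists them, and capitals mark the AU-rich pentamer ATTTA, a motif known from unstable mRNAs.
A_44_P707354: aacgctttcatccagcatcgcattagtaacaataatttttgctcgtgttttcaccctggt
TC630385: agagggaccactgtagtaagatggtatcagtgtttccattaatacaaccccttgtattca
TC601080: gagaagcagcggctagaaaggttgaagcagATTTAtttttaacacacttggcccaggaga
TC640983: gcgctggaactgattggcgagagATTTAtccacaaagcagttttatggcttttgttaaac
TC609893: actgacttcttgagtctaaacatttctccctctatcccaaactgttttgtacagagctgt
TC627767: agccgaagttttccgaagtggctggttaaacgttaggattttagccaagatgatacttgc
TC614971: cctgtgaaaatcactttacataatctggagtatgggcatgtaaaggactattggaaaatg
A_44_P707354 lies at chr17:62771650-62771709 on the plus strand and TC630385 at chr12:33685682-33685741 on the plus strand. TC601080 lies at chr15:105357517-105357576 on the plus strand, TC609893 at chr4:5273110-5273169 on the minus strand, TC627767 at chr14:45477807-45477866 on the plus strand and TC614971 at chrX:139999035-139999094 on the minus strand. TC640983 has no position.

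Another 3 probes from separate places on chromosome 15 are shown because their sequences were nearly the same, and capitals mark the 36 bases common to all of them.
A_44_P445484: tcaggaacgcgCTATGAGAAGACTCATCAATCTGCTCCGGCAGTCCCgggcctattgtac
A_44_P311636: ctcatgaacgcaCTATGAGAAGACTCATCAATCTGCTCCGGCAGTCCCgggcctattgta
A_44_P318819: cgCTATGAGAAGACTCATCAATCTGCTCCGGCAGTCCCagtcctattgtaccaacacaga
A_44_P445484 lies at chr15:4615301-4615360 on the plus strand, A_44_P311636 at chr15:5397757-5397816 on the minus strand and A_44_P318819 at chr15:6115315-6115374 on the minus strand. Their pairwise alignments ran over 48 to 55 bases with 95.8% to 98.2% identity, so RNA from any of these copies could bind all of them, and their values are uncertain as separate transcripts.

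A last group is shown because its members were high at 60 or 120 min only. None of them holds ATTTA or the polyadenylation hexamer AATAAA in the strand listed.
TC622314: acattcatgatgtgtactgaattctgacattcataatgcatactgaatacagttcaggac
A_44_P255694: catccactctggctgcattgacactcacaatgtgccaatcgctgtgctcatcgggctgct
A_44_P316422: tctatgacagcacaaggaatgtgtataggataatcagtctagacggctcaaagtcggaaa
A_44_P929787: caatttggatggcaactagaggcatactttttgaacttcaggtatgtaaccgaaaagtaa
TC622314 lies at chr15:105467194-105467253 on the plus strand, A_44_P255694 at chrX:68810059-68810119 on the minus strand and A_44_P929787 at chr8:26962248-26962307 on the plus strand, while A_44_P316422 has no position.

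In the strand listed, ATTTA occurred in 4 of the 48 sequences (8.33%), namely in TC601080, TC640983, TC596960 and the Ensembl probe ENSRNOT00000007630.5, and in 7.61% of all 41012 probes. On the opposite strand it occurred in 5 (10.4%), against 7.51%. AATAAA occurred in 2 (4.17%) on the listed strand and 4 (8.33%) on the other, against 4.26% and 3.38% of all probes; the hexamer and the pentamer share letters but neither contains the other. The median A+T content was 58.3% in the 48 and 56.7% over all probes. Searched against 419 rat hairpins and 33469 promoter windows of RefSeq, no probe matched a hairpin over 20 or more bases and 1, TC618620, aligned over 35 bases to the windows of Btnl4 and LOC134480479. Against the other probes of the array, ENSRNOT00000007630.5 shared 22 bases with a probe of Fam162a. A_44_P760606 aligned over 25 bases with a probe of XM_213110, at 96.0% identity.

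The arrays themselves were alike in strength. Between 38.4% and 49.6% of 43379 spots were well above background in a channel, a flag that the scanner software sets, and no spot was saturated. The catecholamine and secretory vesicle genes that define PC12 cells were well above background in the control RNA on all 12 arrays for the 13 of 14 markers on the array. Among markers of other cells, Col3a1, Lum, Ptprc, Pecam1, Cdh5 and Gfap were so on none, while Col1a1 and Cd68 were so on all 12 at median signals of 63.9 and 113. Dcn was so on 5 arrays and Mbp on 3. Summed over the 4 fibroblast markers the control signal ran from 78.6 to 157 and the PACAP38 signal from 79.0 to 188; over the 2 leukocyte markers it ran from 92.9 to 202 and from 88.3 to 410, over the 2 endothelial markers from 12.1 to 21.9 and from 9.60 to 27.3, and over the 2 glial markers from 23.6 to 58.3 and from 26.1 to 69.7; their part in the results was not tested. Fewer responding cells and less RNA per cell cannot be told apart in pooled RNA.

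The ratio of PACAP38 over control was turned by dye so that values above 1 mean more signal with PACAP38. Over all probes the ratios of the 2 dye orientations correlated negatively, from r = -0.664 at 10 min to -0.0375 at 120 min. Among probes whose signal stood well above background, r was -0.346, -0.204, 0.216, 0.338, 0.669 and 0.801 over the 6 times, so that at 5 and 10 min the orientations still ran against each other. For the 48 members it was -0.131 at 5 min and between 0.64 and 0.82 from 10 to 30 min. The members' values of 60 and 120 min, 0.881 and 0.717, come from the arrays that chose them. They are therefore no independent measure of agreement, and that of 120 min lies below the 0.801 of probes well above background. Direction was taken from the dyes in the labels, and a ratio had to pass on both arrays to be counted.

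**Figure D1:**
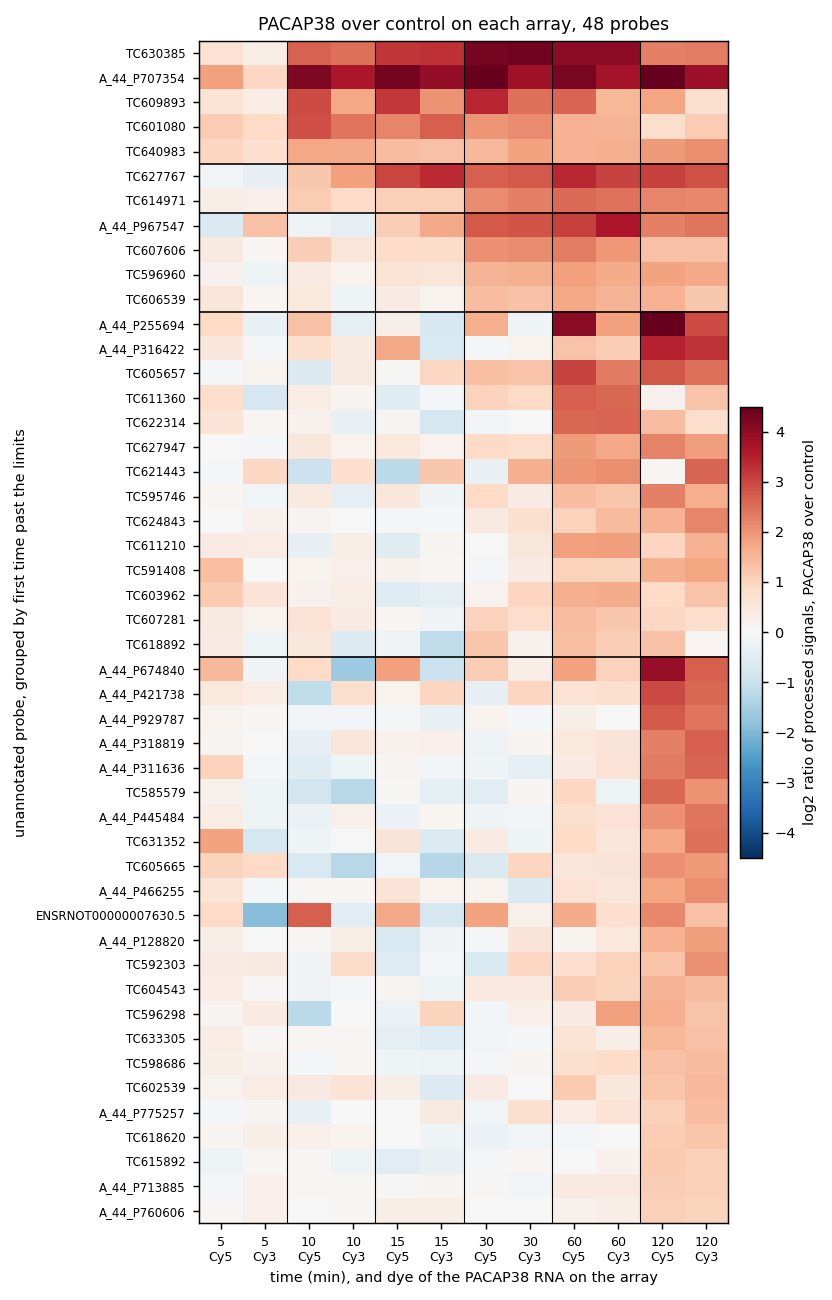
Log2 ratio of PACAP38 over control for the 48 unannotated probes (rows) on each of the 12 arrays (columns, by time in min and by the dye of the PACAP38 RNA), red for higher and blue for lower with PACAP38. Horizontal lines separate probes by the first time at which they passed the limits, from 5 probes at 10 min at the top through 2 at 15 min, 4 at 30 min and 14 at 60 min to 23 at 120 min at the bottom.

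The 48 probes came on in steps. None passed the limits at 5 min, where 0.00244% of all probes did, and 5 passed at 10 min (0.0658% of all probes). At 15 min 7 passed (0.0829% of all probes) and at 30 min 11 (0.241% of all probes). These 4 times were not used to choose the probes. With normexp and loess the numbers at 10, 15 and 30 min were 1, 2 and 4. At 60 min 25 passed (0.817% of all probes) and at 120 min 39 (1.94% of all probes), 16 of them at both times, which the rule itself fixed. Each of the 5, 7 and 11 was also past the limits at every later time up to 60 min. A probe that had fallen back by 60 min could have been chosen only through 120 min, so this is largely set by the selection. The ratio was highest at 120 min for 31 probes. It was highest earlier for the other 17, of which 14 were at 60 min, 2 at 30 min and 1 at 10 min.

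Over the 6 times, from 5 to 120 min, the median log2 ratio of the 48 was 0.24, 0.08, 0.12, 0.37, 1.22 and 1.72, while the median of all probes lay between -0.03 and 0.03. At 5 min 25 of the 48 had a ratio above 1 on both arrays and 2 had it below 1 on both, where 12.0% of all probes and 19.5% of the 902 other unannotated probes with signal were above 1 on both. From 10 to 30 min the numbers above were 23, 19 and 23 and those below were 6, 12 and 5, where 12.5%, 16.5% and 12.4% of all probes were above. For comparison, a list of 32 early response genes such as Fos, Egr1 and Nr4a1 had 0, 11, 12, 21, 26 and 26 past the limits at these times. That list was put together with results of these arrays known.

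The slope of the log2 ratio on log2 minutes over 5 to 30 min was the only quantity tested, since its arrays took no part in the selection, with 1 value per time point. Dim probes were left out of the fit, which then held 39 of the 48 among 17286 probes in all. limma called 0 of the 39 and 0 of all probes (0.0%) at an adjusted p of 0.05, with 1132 of all probes at an unadjusted p below 0.05. Upward slopes at an unadjusted p below 0.05 were found in 9 of the 39, against 3.06% of all probes. That number was 1 with slide as a fixed block (2 downward), 0 with normexp and median centring (1 downward) and 3 when 30 min was left out (6 downward). The steepest among these was that of TC630385, at 1.46 ± 0.43 log2 units per doubling of time (SE; limma adjusted p = 0.626), and the smallest adjusted p was that of TC596960, at 0.61 ± 0.12 (limma adjusted p = 0.528). The downward slope of TC618620, at -0.16 ± 0.06, also had an unadjusted p below 0.05 (limma adjusted p = 0.721).

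A_44_P707354 was among the earliest and the strongest. With PACAP38 labelled in Cy5 its PACAP38 signal at the 6 times was 151, 713, 1964, 2166, 1956 and 2881, against 42.1, 39.2, 99.1, 96.7, 104 and 128 in the control. On the dye-swapped arrays PACAP38 gave 126, 1293, 2146, 2143, 1984 and 2600 against 65.2, 104, 139, 154, 147 and 181. PACAP38 was above control on all 12 arrays, and from 15 min on the PACAP38 signal stayed between 1956 and 2881. The geometric mean ratio of both arrays was 2.63 at 5 min (3.58 and 1.93), and then 15.1, 17.5, 17.7, 16.0 and 18.0.

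Its nearest named probe belonged to Cul2, a cullin scaffold of ubiquitin ligases, 48.1 kb away on the opposite strand. That probe was well above background for PACAP38 on neither array from 5 to 30 min and had ratios of 0.826 and 0.438 at 60 min. The nearest named probe on the same strand was of Crem, which encodes the cyclic AMP response element modulator and its short repressor form ICER, 59.0 kb downstream. The ratio of this Crem probe was 1.16, 1.01, 1.23, 3.84, 10.8 and 18.1 in the same order. All 3 Crem probes on the array first passed the limits at 30 min, and none of them did at 10 or 15 min, when A_44_P707354 was already near its highest ratio.

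TC630385 climbed for longer and then fell back. With PACAP38 in Cy5 its PACAP38 signal was 133, 618, 1033, 2630, 2370 and 1075 at the 6 times against 85.5, 99.3, 112, 136, 144 and 224 in the control, and in the swapped arrays it was 168, 490, 1153, 2485, 2675 and 892 against 135, 88.1, 119, 124, 165 and 180. The geometric mean ratio was 1.39, 5.89, 9.49, 19.7, 16.4 and 4.87. PACAP38 was above control on both arrays from 5 to 30 min, and also at the 2 later times used by the rule. The 2 orientations differed most at 5 min (1.56 and 1.24). The nearest named probe was of Vps37b, a subunit of the ESCRT-I complex of endosomal sorting, 24.3 kb downstream on the same strand. Neither RNA of that Vps37b probe was well above background on either array up to 30 min, and its ratio was 13.8 at 60 min and 12.3 at 120 min. The other Vps37b probe had ratios of 0.90 at 10 min, 1.93 at 30 min and then 8.48 and 11.1.

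TC601080 was the only probe whose ratio was highest at 10 min. Its PACAP38 signals at 10 min were 486 and 490 against control signals of 65.1 and 92.8, and they were lower at 60 min, with 248 and 274 against 84.8 and 94.0. At the last time they were 256 and 269 against 146 and 122. The geometric mean ratio ran 2.04, 6.28, 5.41, 4.19, 2.92 and 1.96 over the 6 times. It lay 116 kb upstream of the nearest named probe, on the same strand, which was of Mbnl2, a muscleblind regulator of RNA splicing. Between them, 110 kb from TC601080, lay a further member, TC622314, only 6.23 kb upstream of the Mbnl2 probe. TC622314 had ratios of 0.793 at 15 min and 6.08 at 60 min (PACAP38 signals 288 and 344 against 48.4 and 55.5), falling to 2.13 at 120 min. The Mbnl2 probe was at 0.994 at 30 min, 1.19 at 60 min and 3.08 at 120 min (PACAP38 signals 4254 and 3561 against 1242 and 1287). The highest ratios of these 3 probes thus came at 10, 60 and 120 min in the order in which they lie along the strand.

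TC640983 passed the limits from 10 min on with lower ratios, of 3.33, 2.55, 3.11, 3.01 and 4.01. Its PACAP38 signals of 210 and 192 at 10 min stood against 62.3 and 58.3 in the control. Those at 120 min were 361 and 368 against 95.6 and 86.8. TC609893 was the dimmest of the 5 probes past the limits at 10 min. Its PACAP38 signals were 103 and 98.6 against 13.5 and 29.3 at 10 min. They were 143 and 122 against 13.2 and 21.7 at 30 min, and 94.9 and 66.8 against 27.8 and 40.5 at the end. At 30 min the control was not well above background, and the signal with PACAP38 exceeded it at least 6.94-fold. At 120 min the ratio had fallen to 3.41 and 1.65. The nearest named probe, of Galntl5, 4.68 kb away on the same strand, was well above background for neither RNA at any time.

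A pair of probes 7.25 kb apart on opposite strands of chromosome 14, TC627767 and A_44_P967547, rose from background. For TC627767 the PACAP38 signals in the Cy5 orientation were 10.6, 33.3, 87.0, 168, 238 and 183 over the 6 times and in the other 9.55, 29.9, 66.3, 166, 238 and 190, while control signals stayed between 6.5 and 28.6. At 15 min the difference was at least 3.14-fold. The ratio was 6.61 at 30 min, where the control was again not well above background, and those of 60 and 120 min were 9.35 and 7.80. A_44_P967547 followed later, with PACAP38 signals from 15 min on of 25.3, 106, 167 and 117 in the Cy5 orientation and 31.1, 80.4, 164 and 91.8 in the other. Its control was not well above background on any array, and the bounds were at least 4.78-fold, 7.98-fold and 3.82-fold from 30 min on. Both were nearest to Smim14, a small membrane protein of the endoplasmic reticulum, which lay 43.7 kb downstream of TC627767 on its strand and 36.4 kb from A_44_P967547 on the other. The Smim14 probe had ratios of 0.999, 1.51 and 2.40 from 30 min on.

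TC614971 rose more slowly from a measurable level. Its PACAP38 signals over the 6 times were 276, 482, 606, 1099, 2041 and 2011 in the Cy5 orientation and 301, 455, 554, 1446, 2242 and 1873 in the other, against a control between 218 and 434. The ratio was 1.2, 2.02, 2.11, 4.60, 5.69 and 4.58 in that order, and at 10 min the ratio of 1 array, 1.83, was below the limit. Plac1, whose probe lay 16.0 kb away on the same strand and is a placental gene, was well above background for neither RNA at any time.

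**Figure D2:**
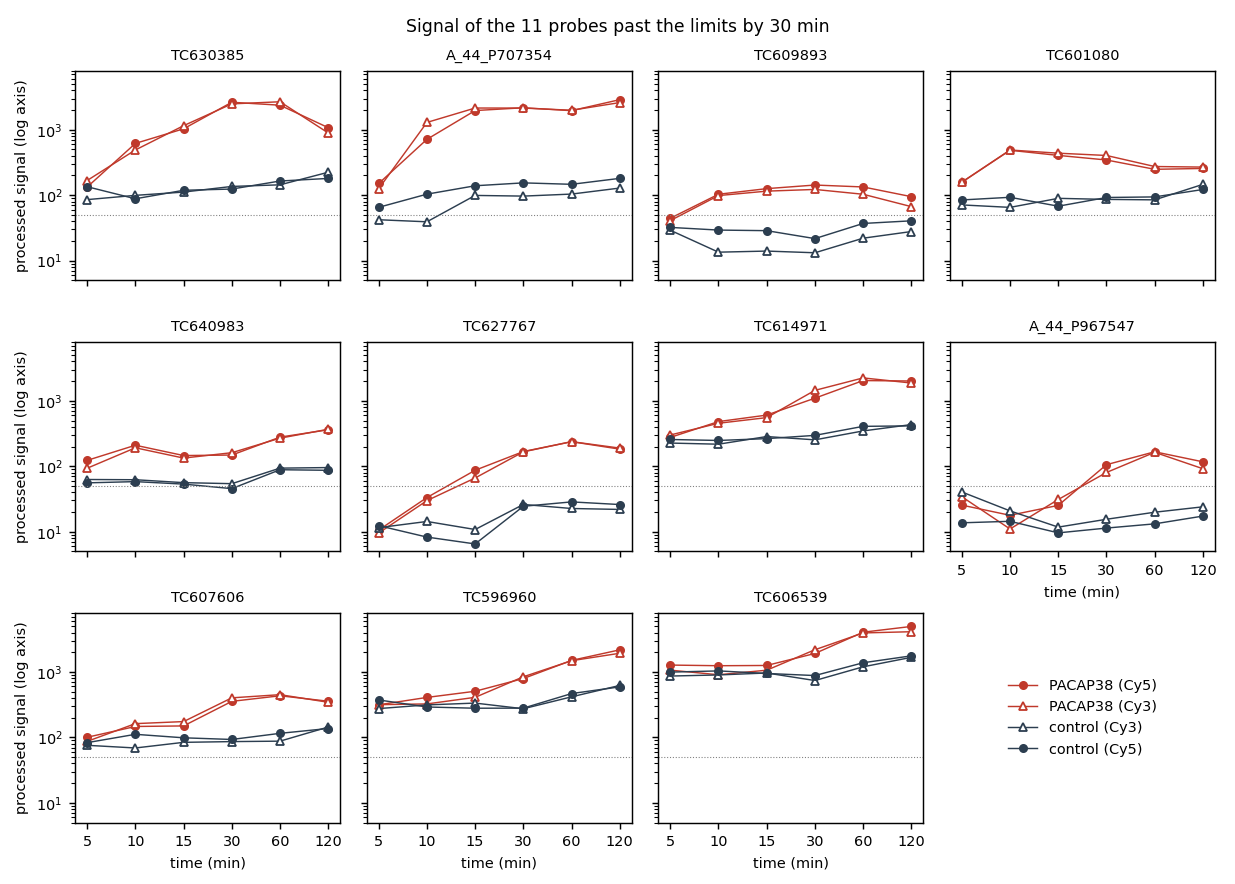
Processed signal (log axis, no unit) against time for the 11 unannotated probes past the limits by 30 min, with PACAP38 in red and control in dark grey, filled circles for RNA labelled in Cy5 and open triangles for Cy3, and the signal limit of 50 dotted. TC630385, A_44_P707354, TC609893, TC601080 and TC640983 first pass the limits at 10 min and the rest at 15 or 30 min. Without passing, A_44_P707354 and TC601080 already have geometric mean ratios of 2.63 and 2.04 at 5 min. TC601080 falls toward control by 120 min.

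Another 3 probes first passed at 30 min. TC607606 had PACAP38 signals of 356 and 402 against 86.3 and 93.0 at 30 min (ratio 4.22), followed by ratios of 4.39 and 2.50. TC596960 went from 0.984 at 5 min to 2.96 at 30 min and stood at 3.38 at both later times, with PACAP38 signals of 2180 and 1932 against 623 and 592 at the end. TC606539, the brightest of the early probes at 120 min, had PACAP38 signals of 1918 and 2186 against 740 and 882 at 30 min and 4964 and 4122 against 1673 and 1764 at 120 min, with ratios of 2.54 and 2.63 at these times. For TC607606 the nearest named probe was of Dnaja2, an Hsp40 cochaperone, 16.0 kb downstream on the same strand. That Dnaja2 probe had a ratio of 1.1 at 30 min and 2.17 at 120 min (1.74 and 2.71 on the 2 arrays).

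Among the probes first past the limits at 60 min, A_44_P255694 came from below the level the scan could measure. Neither RNA was well above background from 5 to 30 min. At 60 min PACAP38 gave 98.2 and 54.5 against 5.93 and 15.2 in the control, a difference of at least 3.81-fold, and at 120 min it gave 277 and 233 against 10.4 and 30.3. The ratio at 120 min was 14.3, but its 2 orientations were 26.7 and 7.67. The nearest named probe, of Dmd (dystrophin), was 449 kb away and had a ratio of 1.15. A_44_P316422 had PACAP38 signals of 96.5 and 87.9 against 39.6 and 40.7 at 60 min and 688 and 709 against 61.8 and 74.5 at 120 min, with ratios of 2.30 and 10.3. TC611360 was high at 60 min only, with 198 and 162 against 30.5 and 27.3 (ratio 6.21), and 53.0 and 62.8 against 46.2 and 25.9 at 120 min.

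The other 23 probes passed at 120 min alone. A_44_P674840 had 325 and 244 against 21.7 and 38.1 in the control, which was well above background on 1 array only. Its ratio was 9.79, with 15.0 and 6.41 on the 2 arrays. A_44_P421738 had 128 and 87.6 with PACAP38 and a control not well above background, which gives at least 3.93-fold. A_44_P929787 was flat until 60 min, with PACAP38 signals between 446 and 767 and ratios between 0.871 and 1.11 from 5 to 60 min, and then 5199 and 4986 against 774 and 936 at 120 min (ratio 5.98). The 3 probes of chromosome 15 with shared sequence all rose together at 120 min. A_44_P318819 had 765 and 680 against 158 and 105 (ratio 5.61), A_44_P311636 had 305 and 282 against 59.8 and 45.8 (ratio 5.60) and A_44_P445484, which is named here because of its sequence after its values were seen, had 303 and 353 against 72.9 and 65.7 (ratio 4.72). At 60 min the ratios of these 3 were 1.44, 1.43 and 1.65.

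The limit itself cut through a continuum. Just inside it were A_44_P760606 at 120 min (2.12 and 2.02), TC615892 (2.28 and 2.08) and A_44_P775257 (2.12 and 2.65), and just outside were TC640993 (2.07 and 1.94), ENSRNOT00000029187.6 (1.94 and 2.28) and A_44_P657040 (2.13 and 1.9), all at 120 min. Among the members A_44_P760606 was also the brightest of the 48, with PACAP38 signals of 8451 and 10550. The 19 members outside the rule for naming were highest at 120 min in 15 cases and at 60 min in 4. Their highest ratio ran from 2.13 to 4.72 in the 17 with a measured control, and the other 2 had bounds of at least 3.14-fold and 3.65-fold.

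To see whether named genes near these probes also moved, each unannotated probe with a position was set beside the nearest probe that carries a gene name. Of the 42 members with a position, 35 had such a probe within 100 kb. Its ratio passed the same limits at 60 or 120 min in 10 of the 35 (28.6%), which represented 9 genes, and in 3 with normexp and loess. Over all unannotated probes this held for 37 of 1752 (2.11%), and over the unannotated probes with signal that were not members for 9 of 596 (1.51%). Within 10 kb it held for 6 of 15 members (40.0%) and for 3 of 301 of those others (0.997%), and within 1 Mb for 11 of 42 (26.2%) and 12 of 751 (1.60%). The neighbours were measured on the same arrays that chose the members, and these shares are a description. When any named probe within 100 kb was counted, an alternative chosen after the data were seen, 15 of 35 members had one past the limits (42.9%) against 6.68% of all unannotated probes and 6.88% of the others with signal. The 5 that this added included A_44_P707354, through Crem, and TC604543, TC591408, TC618620 and TC598686.

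**Figure D3:**
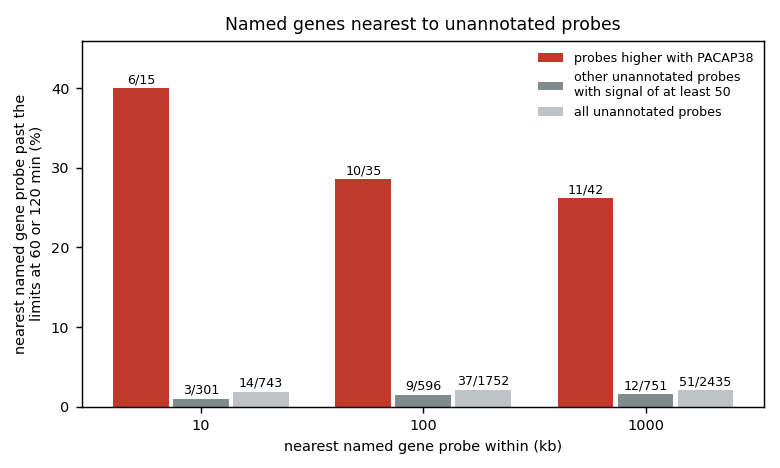
Share (%, bars from 0) of unannotated probes whose nearest named gene probe, within 10, 100 or 1000 kb, passed the limits at 60 or 120 min, with the counts over each bar. For the 48 members the share was 40.0%, 28.6% and 26.2%, and for the other unannotated probes with signal of at least 50 it was 0.997%, 1.51% and 1.60%.

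Of the 35 nearest named probes within 100 kb, 24 (68.6%) were on the strand of the member, against 57.7% over all unannotated probes. In 17 of these 24 the named probe lay upstream of the member and in 7 downstream, where over all unannotated probes it lay upstream in 583 and downstream in 422 of 1011, and over the others with signal in 225 and 137 of 364. Across the 35 pairs the log2 ratios of member and named gene correlated weakly, with r = 0.30 at 60 min and 0.06 at 120 min, over pairs that share arrays and, for the Smim14 pairs, a gene. The median log2 ratio of the 35 named probes was 0.17 at 60 min and 0.57 at 120 min, against 1.23 and 1.69 for their members.

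The 10 pairs with a named probe past the limits fell into separate arrangements. In 5 the member lay 1.95 to 10.5 kb downstream of the named probe on the same strand, and both first passed the limits at the same time. TC624843 and Rnf139, a membrane ubiquitin ligase, had ratios of 2.33 and 2.13 at 60 min and 3.70 and 3.53 at 120 min. TC595746 and Mcl1, an inhibitor of apoptosis, had 2.49 and 2.26 and then 3.87 and 4.46. TC604543, 2.23 kb from TC595746, followed them with 2.06 at 60 min and 2.78 at 120 min, but its nearest named probe, on the opposite strand, was of Adamtsl4, for which neither RNA was well above background at any time. TC607281 and Mtus1, which encodes microtubule-associated proteins, had 2.47 and 2.46 at 60 min and then parted, with 1.81 and 3.32 at 120 min. A_44_P929787 and Igsf9b, a cell adhesion molecule of inhibitory synapses, both passed only at 120 min, where the Igsf9b probe had a ratio of 4.46 over a control not well above background. TC631352 and Yod1, a deubiquitinase, did so as well, with a ratio of 4.35 and a bound of at least 4.81-fold. At 60 min TC631352 was at 1.65 and the Yod1 probe was already higher, with a bound of at least 1.82-fold.

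In another 4 pairs the member lay 4.58 to 43.7 kb upstream of the named probe on the same strand, and here the member first passed the limits earlier in 4 of 4. These were TC605657 with Zfp612, TC622314 with Mbnl2, TC630385 with Vps37b and TC627767 with Smim14. The first times were 60 and 120 min, 60 and 120 min, 10 and 60 min, and 15 and 120 min. For Zfp612 the earlier time rests on the limit, since its ratios at 60 min were 1.96 and 2.09 while those of TC605657 were 8.31 and 5.11. The last pair, A_44_P967547 with Smim14 on the opposite strand, had 30 and 120 min. Outside the 10 pairs, A_44_P707354 with Crem had 10 and 30 min and TC601080 with Mbnl2 had 10 and 120 min. Members downstream of a gene on its strand did not all pass with it. TC604543 passed at 120 min and the nearest Mcl1 probe at 60 min, and TC591408 passed at 60 min and a Nup98 probe first at 120 min. These orders lean on the limit, since at 60 min TC604543 was at 2.06 and Mcl1 at 2.26. TC591408 was then at 2.02 and its nearest Nup98 probe at 1.97, while the Nup98 probe that later passed was at 1.39. The arrangement was noticed after the values were seen and no test was made of it.

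**Figure D4:**
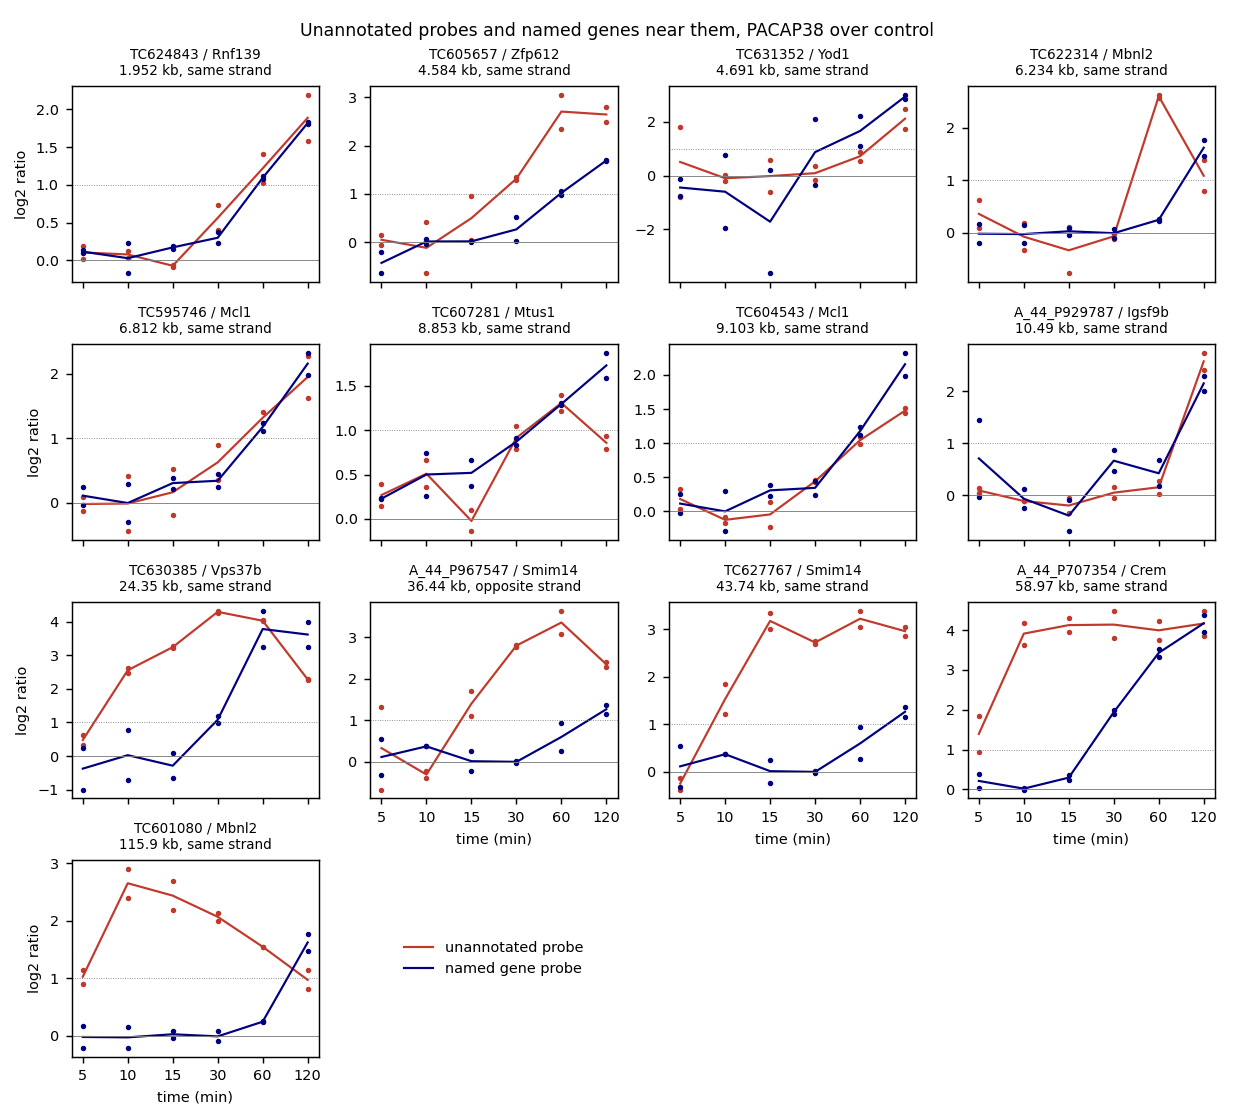
Log2 ratio of PACAP38 over control against time (min) for 13 pairs of an unannotated probe (red) and a named gene probe past the limits at 60 or 120 min (blue), lines for the mean of both arrays and dots for each array, the dotted line at a ratio of 2. Red and blue run together in the panels of Rnf139 and of TC595746 with Mcl1, while red leads blue in those of Vps37b, Smim14, Crem, Zfp612 and Mbnl2. Blue is above red at 120 min in the panel of TC604543 with Mcl1, and at 60 and 120 min in that of Yod1.

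All probes of a gene first passed at the same time for Crem, Vps37b, Smim14 and Zfp612, but not for Mcl1, Mbnl2, Mtus1, Nup98 and Rsrp1. Both Vps37b probes passed first at 60 min, both Smim14 probes and both Zfp612 probes at 120 min, and of 3 Mbnl2 probes 2 passed, both at 120 min. The other Mcl1 probe first passed at 120 min, with a ratio of 1.97 at 60 min, and of 3 Mtus1 probes only 1 passed. For TC591408 the nearest named probe was of Nup98, a nuclear pore protein, 6.16 kb upstream. Its bound at 120 min was at least 2.97-fold but it did not pass, since its ratios on the 2 arrays were 1.91 and 6.05, while another of the 3 Nup98 probes did pass, with a ratio of 2.31. Likewise the Rsrp1 probe nearest to TC618620, 2.23 kb away, had ratios of 1.65 and 2.32 at 120 min and the other Rsrp1 probe a geometric mean ratio of 2.60.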

How the data were processed

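RNA of PC12 cells given PACAP38 and of their controls was compared on 12 two-colour Agilent arrays, 2 per time point with the dyes exchanged, each pool holding 6 cultures. Per the file headers, the authors scanned with Agilent Feature Extraction, version 12.0.3.1 in the headers and 11.0.1.1 in the submitters' processing notes, which subtracted background and normalised the dyes to give the deposited processed intensity of each channel. The same software gave the deposited p-value of each spot's log ratio and its flags. The deposited value table held the log10 ratio of Cy5 over Cy3, and all 43379 spots of each array lay within 0.001 of the log10 ratio of the processed signals.

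Control spots and outlier-flagged spots were left out (197 to 267 flagged spots per array), spots of a probe were averaged as log2, and ratios were turned by dye. The number of arrays limits the precision, and 1 replicate per time point allows no test between PACAP38 and control. Where the control was not well above background on either array, "at least N-fold" was computed after loess and Aquantile scaling, against the higher of the lowest signal well above background and the dim probe's own, and it is open to dye bias. Where this came out above the ratio of the processed signals, the ratio is given instead and no bound. The slope over 5 to 30 min was fitted with limma 3.58.1 in R 4.3.3 on the mean log2 ratio of each time point, with Benjamini-Hochberg adjustment over all probes fitted and a limit of 0.05. Its p-values treat time points as replicates. The fit was tested on simulated data.

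Positions are those the files list (rn4). The nearest named probe was taken within 100 kb, with names brought up to date through RefSeq for 34 of the 42 neighbours. Sequences were compared with BLAST+ 2.17.0. Members named were all those past the limits by 30 min, the 10 highest at 60 min and at 120 min, those with a responding neighbour, those at the limit and those lying close together. The members and gene lists were chosen with earlier results of these data known. Alternatives were another background correction, scaling, ratio or signal limit, 1 dye orientation alone, other neighbour rules and leaving out each time point of the slope.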

Additional observations from a re-analysis of the deposited data

Results flagged for a closer look

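A single probe of all 41012, A_44_P767838, passed the limits at 5 min, and it is unannotated but no member. It is given here because it lies outside the comparisons above. Its geometric mean ratio at 5 min was 3.641, with PACAP38 signals of 54.0 and 71.2 against 12.6 and 23.1 in the control. At 10, 30 and 120 min both its ratios lay between 0.567 and 1.12. At 15 min they were 8.58 and 1.30, and at 60 min 4.57 and 1.06, so the 2 arrays of the same RNA differed.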

How the results depend on the processing

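The number of probes under the rule, 48, was 11 with normexp and loess and 6 when median centring took the place of loess. A ratio limit of 3 gave 29 probes and 1.5 gave 93, and there were 119 or 90 when only the array with PACAP38 in Cy5 or in Cy3 was used. It stayed between 42 and 61 under the other alternatives. With normexp the log2 ratio of the members at their highest time changed by a median of -1.25 with loess and -1.27 with median centring, and no direction turned, which the selection at a ratio of at least 2 all but fixed. The numbers past the limits at 10, 15 and 30 min were 1, 2 and 4 with normexp and loess and 1, 2 and 3 with median centring. The 10 members with a responding nearest gene within 100 kb were 6 within 10 kb, 3 with normexp and loess and 2 with median centring. The slope called 0 members under each alternative, and leaving out each time point gave 0 to 0. Counting any named probe within 100 kb and counting members with a shared sequence once were chosen after seeing the data. No paired analysis was possible because each group had 1 replicate at a time point, so no replicate numbers could serve as a block. Each ratio already sets PACAP38 against its own control on the same array, and the slope was also fitted with slide as a block. Signals near background limit what can be said of the dim members, whose control was well above background on neither array for 11 to 16 of the 48 from 5 to 30 min.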
